A study of Mus musculus with 2 samples.

Results

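Rnase4 (ENSMUSG00000021876.16) and Ang, the gene of angiogenin, were examined in single mouse fibroblasts sorted by a circadian reporter. Both genes were chosen by symbol, because an earlier analysis of the same cells had found that Rnase4 fell more along the reporter axis than other genes of its level. The choice of Rnase4 therefore used its levels across the reporter gates, and those levels are given here as a description with no test. Of these 2 genes, 1 was measured: Rnase4 is 1 of the 33757 features counted, and Ang was not analysed here.

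Both proteins belong to the ribonuclease A family of small secreted enzymes. Angiogenin enters cells, cleaves transfer RNA under stress and promotes vessel growth, and RNase 4 is a secreted ribonuclease that prefers to cut after uridine. In mouse the genes share a promoter region and non-coding first exons, to which the separate coding exon of each is spliced, and liver is a main source of both. The circadian clock is a feedback loop: BMAL1 (encoded by Arntl) and CLOCK activate Dbp, the Per and Cry genes and Nr1d1, and the product of Nr1d1, REV-ERB alpha, represses Arntl. Arntl and Dbp therefore mark opposite ends of the cycle.

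The cells were NIH3T3-Rev-VNP1-H2B-iRFP fibroblasts, a derivative of the NIH3T3 mouse embryo line with a Venus fluorescent reporter of Nr1d1 and with histone H2B tagged by iRFP, a near-infrared fluorescent protein. All of them were grown without synchronization in serum-containing medium to 95% confluency, about 5 days after seeding, and there was no other genotype, treatment or time. Single cells went into 2 plates of 384 wells from 4 Venus gates, numbered here from 1 (dimmest) to 4 (brightest), and were profiled by FLASH-seq, which sequences full-length cDNA. All wells of plate 1 came from the high iRFP sort and all wells of plate 2 from the low iRFP sort, so sort and plate cannot be told apart. The labels do not say whether the line is 1 clone, nor whether the plates came from separate cultures, so the spread between plates may be technical.

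Of 768 cells, 762 were kept, 383 on plate 1 and 379 on plate 2, with 151173 to 1618022 counts each. On both plates a given gate was sorted into the same 6 columns of wells, so gate and well position cannot be told apart. The fibroblast identity was checked with 10 marker genes such as Col1a1 and Vim. All 10 exceeded a mean of 1 CPM (counts scaled to a common library total), and their summed level was 23224 to 29296 CPM over the 8 combinations of plate and gate. Endothelial markers summed to 0.340 to 0.796 CPM, leukocyte markers, mostly Lyz2, to 6.33 to 12.7 CPM, epithelial markers to 3.38 to 7.74 CPM and erythroid markers to 0.334 to 0.871 CPM.

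The window that the reference annotation gives for the start of both genes is shown first, since it is the region from which transcripts of both are described to arise. RefSeq on GRCm38.p6 places this start window at chr14:51090827-51091126 on the plus strand, and a further window, of Rnase4 alone, at chr14:51095750-51096049. The counts were made on another build (GRCm39), so these positions serve only to show the sequence. Printed are the bases upstream of each start, chr14:51090827-51091076 and chr14:51095750-51095999, with no capitals because no searched motif was found.
Rnase4 and Ang: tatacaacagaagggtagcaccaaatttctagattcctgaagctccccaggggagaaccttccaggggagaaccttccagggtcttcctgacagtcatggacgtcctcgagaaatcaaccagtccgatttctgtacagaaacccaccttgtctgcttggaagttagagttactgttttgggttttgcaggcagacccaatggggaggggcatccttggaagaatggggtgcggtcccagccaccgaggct
Rnase4 alone: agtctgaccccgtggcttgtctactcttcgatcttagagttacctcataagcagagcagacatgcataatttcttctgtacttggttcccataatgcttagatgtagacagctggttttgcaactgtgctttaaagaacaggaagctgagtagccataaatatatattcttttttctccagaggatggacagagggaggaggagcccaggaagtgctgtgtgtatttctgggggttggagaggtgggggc
Both strands of each 300-base window were searched for 3 clock elements: TNGGTCA (the core of the element bound by ROR and REV-ERB), TTANGTAA (the D-box, bound by DBP and NFIL3) and CACGTG (the E-box, bound by BMAL1 and CLOCK). None of these letters occurred in either window. Among 32817 promoter windows of the same length, 10.97% held TNGGTCA, 2.32% held TTANGTAA and 7.15% held CACGTG. In the older gene models of that build, 219 of the 1637 exonic bases of Rnase4 (13.4%) are also exonic in Ang, and how reads over them were assigned is not given in the sources used here.

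Rnase4 was highest in the dimmest Venus gate on both plates and lowest in the third. On plate 1 its summed level was 73.1 CPM in gate 1, 25.6 CPM in gate 2, 12.7 CPM in gate 3 and 15.3 CPM in gate 4. On plate 2 it was 48.2, 19.5, 7.29 and 9.56 CPM in the same order. The order of the gates was thus the same on each plate, with gate 1 far above the others and the brightest gate slightly above the third. Averaged over the plates, the levels were 60.7 ± 17.6 CPM (SD, n = 2 plates), 22.5 ± 4.3, 9.99 ± 3.8 and 12.4 ± 4.0 CPM. These SDs include any difference between the iRFP sorts, since each plate held 1 sort. The values of gates 3 and 4 overlapped between plates, and those of gates 1 and 2 overlapped with no other gate.

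**Figure D1:**
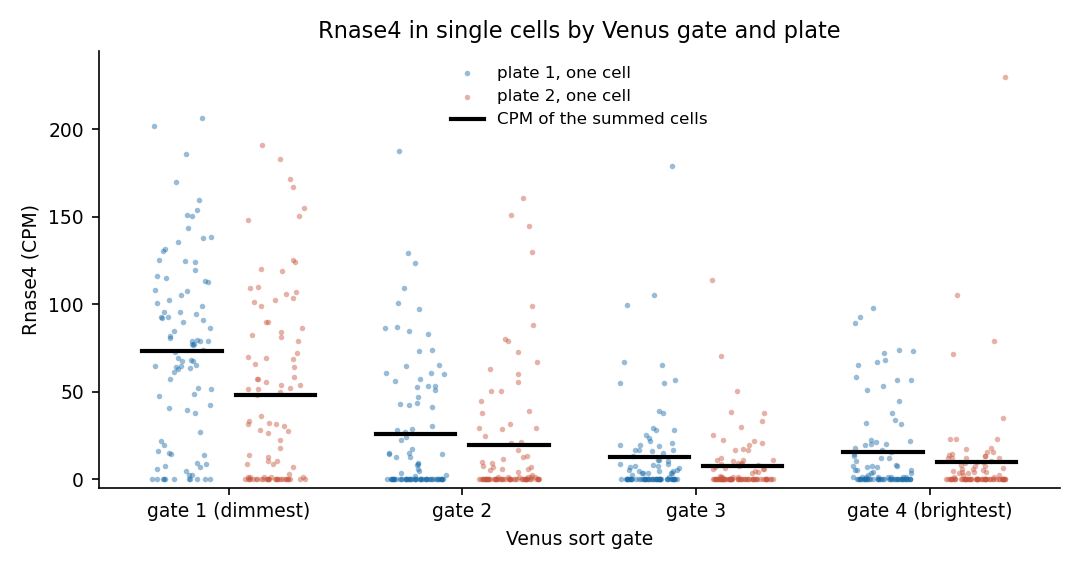
Rnase4 in each kept cell, in CPM (vertical axis), by Venus gate from dimmest to brightest (horizontal axis) and plate (colour); each point is 1 cell and each black bar is the CPM of the summed cells. The bars drop from 73.1 and 48.2 CPM in gate 1 to 12.7 and 7.29 CPM in gate 3, while cells at 0 and cells near 100 CPM occur in every gate.

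The fall was concentrated in the dim end of the axis. From gate 1 to gate 2 the level fell by 1.52 log2 on plate 1 and by 1.31 log2 on plate 2, and from gate 2 to gate 3 it changed by a further -1.01 and -1.42 log2. From gate 3 to gate 4 it was higher by 0.27 and 0.39 log2. Gate 1 exceeded gate 3 by 5.76-fold on plate 1 and 6.62-fold on plate 2, and gate 4 by 4.79-fold and 5.04-fold. On plate 2 the step from gate 3 to gate 4 leaned on 1 cell with 197 Rnase4 counts (230 CPM): without the highest cell of each gate the levels were 6.18 and 7.15 CPM, against 10.7 and 14.3 CPM on plate 1. Fitted as a straight line over the gates, the change was -0.83 log2 per gate, -0.81 on plate 1 and -0.85 on plate 2. Other genes with a symbol were ranked only where log2 CPM averaged 3 or more and edgeR called them lower toward bright Venus. A call is an adjusted p under 0.05, so larger falls that were not called would be missing. Among the genes ranked, the next largest falls, in log2 per gate, were Arntl at -0.72 and Itga11 (a collagen-binding integrin subunit) at -0.69. Ncam1 (a cell adhesion molecule) followed at -0.58.

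The steps of Rnase4 were placed in part differently from those of the clock genes. Arntl was at 50.2, 40.7, 18.5 and 12.1 CPM from gate 1 to gate 4 on plate 1 and at 43.1, 40.6, 17.04 and 12.3 CPM on plate 2. Its first step was -0.30 and -0.09 log2, where Rnase4 had its largest step of plate 1. The largest step of Arntl was from gate 2 to gate 3 on both plates, at -1.14 and -1.25 log2. On plate 2 the largest step of Rnase4, -1.42 log2, lay there too. Arntl went on down from gate 3 to gate 4, by -0.61 and -0.47 log2, where Rnase4 did not. Dbp, an output gene of the clock, mirrored Arntl with 17.4, 20.8, 49.9 and 73.1 CPM on plate 1 and 19.2, 23.3, 56.9 and 82.5 CPM on plate 2. These differences between the genes' steps were not tested, since Rnase4 was chosen on the same contrast.

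Part of the fall lay in the share of cells with any Rnase4 count and part in the level of the cells that had one. On plate 1 the share was 88.4% in gate 1 (95% exact binomial interval 80.2 to 94.1), 51.0% in gate 2, 50% in gate 3 and 56.2% in gate 4. On plate 2 it was 70.5% (60.3 to 79.4), 47.9%, 40.6% and 43.6%. The share thus dropped once, between gates 1 and 2, and stayed near that value. Mean Rnase4 in the cells with a count was 81.6, 48.8, 25.4 and 27.3 CPM on plate 1 and 66.9, 39.6, 17.7 and 21.4 CPM on plate 2. From gate 2 to gate 3 the share changed by a factor of 1.02 and 1.18, while the level in those cells changed by a factor of 1.93 and 2.24. The intervals cover the sampling of cells only, with the cells of a plate and gate taken as independent, and not the spread between plates.

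**Figure D2:**
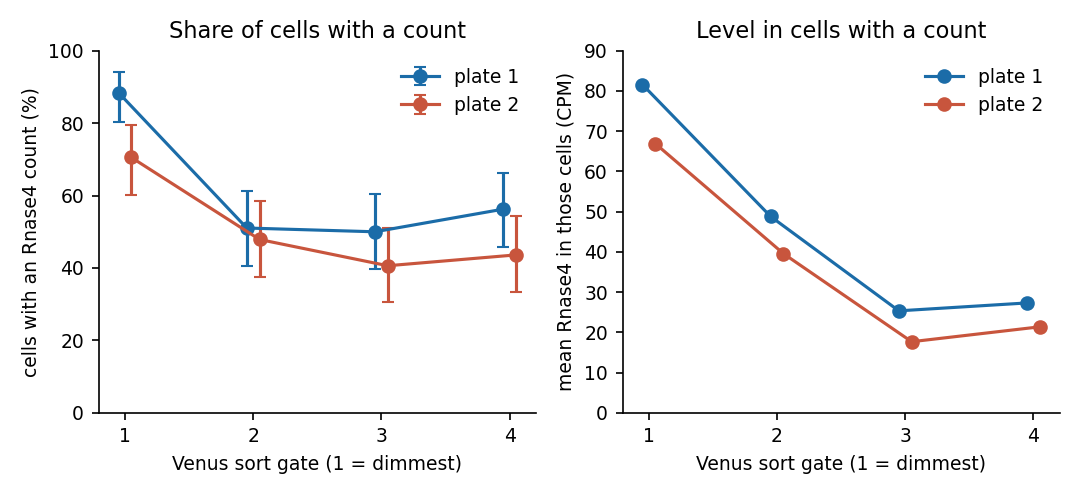
Share of cells with at least 1 Rnase4 count, in percent with 95% exact binomial intervals (left), and mean Rnase4 CPM in those cells (right), by Venus gate (horizontal axis) and plate (colour). The share drops from 88.4% and 70.5% in gate 1 to 51.0% and 47.9% in gate 2 and then moves little, while the level in those cells goes on down to gate 3.

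The shares were similar at 1 fixed depth. With every cell thinned to 697542 counts and 77 shallower cells left out, the shares were 91.0%, 51.6%, 49.5% and 51.9% on plate 1 and 72.3%, 47.0%, 40.9% and 44.7% on plate 2. The Spearman correlation of Rnase4 CPM with total counts across cells was -0.055 on plate 1 and 0.015 on plate 2.

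Cells of the same gate differed widely in Rnase4. In all, 335 of the 762 cells (44.0%) had no Rnase4 count, 171 had at least 50 CPM and 59 had at least 100 CPM. The median cell of gate 1 held 73.7 CPM on plate 1 and 31.4 CPM on plate 2, but the median cell of gates 2, 3 and 4 held 2.26, 0.561 and 1.43 CPM on plate 1 and 0 CPM on plate 2. High cells were found in every gate, with maxima of 97.8 to 206 CPM on plate 1 and 114 to 230 CPM on plate 2. Cells at 50 CPM or more numbered 63, 23, 8 and 14 over the gates of plate 1 and 41, 15, 3 and 4 over those of plate 2. The 10 highest cells held 25.04% of all Rnase4 counts in gate 1 of plate 1 and 73.6% in gate 4 of plate 2.

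The spread of Rnase4 exceeded that of most genes at its level. Its coefficient of variation over cells, the SD divided by the mean, was 0.724, 1.49, 2.09 and 1.63 over the gates of plate 1 and 1.10, 1.89, 2.26 and 3.01 over those of plate 2. In each plate and gate it lay above 94.2% to 98.1% of the 732 to 1503 genes whose mean lay between 0.8 times that of Rnase4 and the inverse factor. Those genes had median coefficients of 0.426 to 1.13 and a count in a median of 70.8% to 100% of cells.

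The recorded Venus fluorescence also varied within each gate. Cells of each gate were divided into 3 equal groups by their Venus fluorescence. In gate 2 the summed Rnase4 was 35.4, 28.3 and 13.2 CPM from dim to bright on plate 1 and 27.5, 24.2 and 7.61 CPM on plate 2, so the brightest group was lowest on both. In gate 1 the levels were 70.0, 82.4 and 66.7 CPM and 45.5, 56.0 and 43.4 CPM, with the middle group highest on each plate. In gate 3 they were 16, 12.5 and 9.68 CPM and 9.47, 10.2 and 2.29 CPM. In gate 4 they were 14.3, 9.05 and 22.4 CPM and 6.36, 11.2 and 10.9 CPM, with no order common to the plates. These within-gate values belong to the same axis that chose Rnase4 and carry no test.

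**Figure D3:**
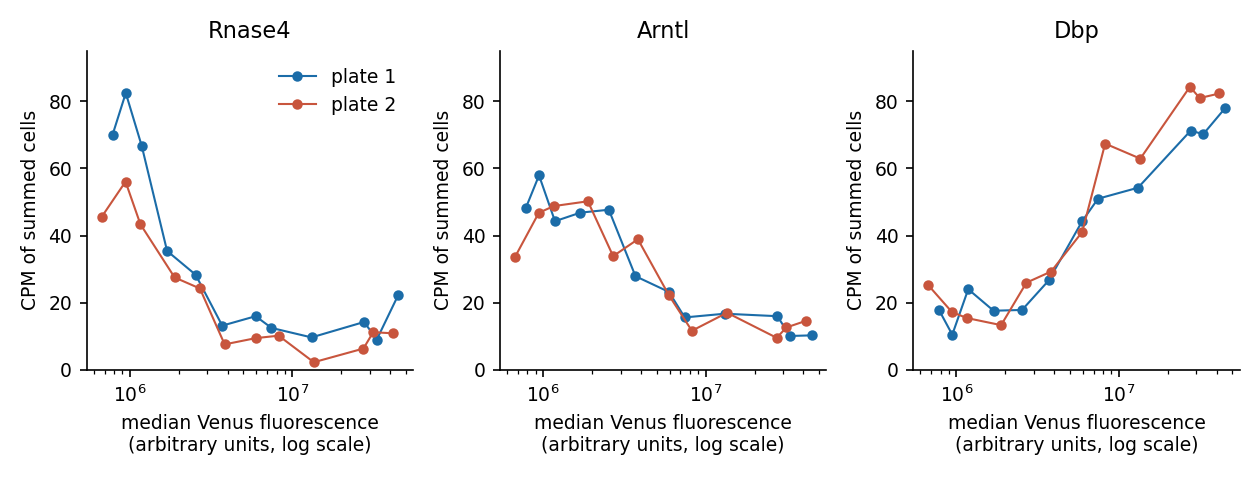
Summed level in CPM (vertical axis) of Rnase4, Arntl and Dbp in 3 equal groups of cells per gate, placed at the group's median Venus fluorescence in arbitrary units on a log axis, for each plate (colour). Rnase4 drops within gate 2, to 13.2 CPM on plate 1 and 7.61 CPM on plate 2 in its brightest group. In the groups beyond it the level is 9.05 to 22.4 CPM on plate 1 and 2.29 to 11.2 CPM on plate 2. Dbp goes on up to gate 4.

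Plate 1, which held the high iRFP sort, had more Rnase4 than plate 2 in every gate. Summed over the gates it was 31.0 CPM against 20.8 CPM, a ratio of 1.49 (95% exact interval 1.44 to 1.54, counting error only). The interval takes every count as independent and leaves out the spread between cells, so it is too narrow. No molecular identifiers are given in the sources used here. By gate the ratio was 1.52, 1.31, 1.74 and 1.60. The same ratio was 1.09 for Arntl and 0.872 for Dbp. With 1 plate for each sort there is no test.

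Recorded iRFP fluorescence and forward scatter, an optical measure related to cell size, were not used to choose the gene and could be tested within plates and gates. Cells of each plate and gate were split at the median of the measure, and the summed counts above and below it were compared. Cells above the median forward scatter had more Rnase4 in 7 of 8 plate and gate pairs, with differences of -1.61 to 0.77 log2. On plate 1 the levels below and above the median were 64.9 and 80.9 CPM in gate 1, 22.0 and 28.9 CPM in gate 2, 9.77 and 15.5 CPM in gate 3, and 12.5 and 17.9 CPM in gate 4. On plate 2 they were 40.6 and 55.7 CPM, 14.5 and 24.8 CPM, 6.39 and 8.21 CPM, and 14.3 and 4.68 CPM. The exception, gate 4 of plate 2, included the cell at 230 CPM in its lower group, and without that cell its difference was -1.04 log2. The fitted difference was 0.29 ± 0.21 log2 (SE), which gave an adjusted p of 0.758 in the edgeR quasi-likelihood test. It did not pass the threshold of 0.05. Without plate 1 the difference was 0.06 log2 (adjusted p 0.997), and without plate 2 it was 0.48 log2 (adjusted p 0.490). Of 14845 genes tested, 0% passed, 1212 had an unadjusted p under 0.05, and DESeq2 called 57.

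Cells above the median iRFP fluorescence also had more Rnase4 in 7 of 8 pairs, by -0.02 to 0.54 log2. The widest gap in log2 was in gate 2 of plate 2, at 15.9 CPM below and 23.1 CPM above the median. In gate 1 the levels were 65.8 and 80.5 CPM on plate 1 and 43.5 and 53.0 CPM on plate 2. The fitted difference was 0.23 ± 0.06 log2 (SE), with an unadjusted p of 0.00411 and an adjusted p of 0.855 in the edgeR quasi-likelihood test, so it did not pass. Over the alternatives it was 0.19 to 0.34 log2 with adjusted p of 0.320 to 0.980. Of 14861 genes tested, 0% passed, 826 had an unadjusted p under 0.05, and DESeq2 called 5.

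Cell by cell, Rnase4 was weakly related to Arntl and Dbp. Over all cells of a plate, its Spearman correlation with Arntl was 0.144 on plate 1 and 0.091 on plate 2, and with Dbp -0.323 and -0.163. Within single gates the correlation with Arntl averaged -0.087 and was positive in 3 of 8, and that with Dbp averaged -0.061 and was positive in 3 of 8. Arntl and Dbp themselves kept a negative correlation in all 8, with a mean of -0.264. Cells with an Rnase4 count had 0.634 to 1.20 times the Arntl of cells without one, and 0.459 to 1.248 times the Dbp. Nfil3, a repressor that binds the D-box, was the clock gene with the highest mean within gates, 0.187, and was positive in 8 of 8. By that mean it ranked 329th of 8692 genes, of which 6.35% were positive in all 8.

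Measures of the cell were on average weakly related to Rnase4. Within gates its mean correlation was 0.159 with the number of genes detected (7 of 8 positive, highest in gate 1 of plate 1 at 0.444). It was 0.059 with total counts (7 of 8 positive), 0.109 with forward scatter, 0.078 with iRFP fluorescence and -0.093 with the mitochondrial share. For the mitochondrial share it ran from -0.405 in gate 2 to 0.091 in gate 3, both of plate 1, and was negative in 5 of 8. With the mean log level of 16 S phase genes it ran both ways, from 0.312 in gate 1 of plate 1 to -0.227 in gate 4 of plate 2, with a mean of 0.004. With that of 16 G2/M genes it was positive in 3 of 4 gates of plate 1 and negative in all 4 gates of plate 2, from -0.230 to 0.169, with a mean of -0.050. These correlations are across cells that share a plate, and in sparse counts weak values are no finding. Toward the bright gates 8 of the 16 S phase genes and 5 of the 16 G2/M genes rose, where 6.78% of all genes tested were called higher, and the part of cell cycle in the fall of Rnase4 was not tested.

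**Figure D4:**
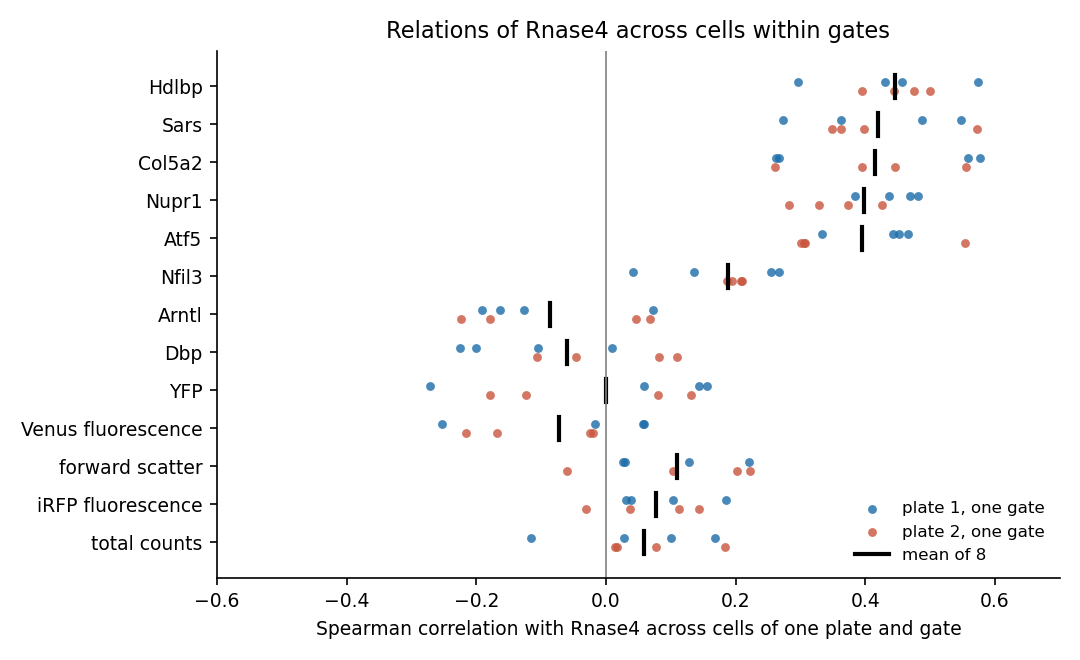
Spearman correlation (horizontal axis) of Rnase4 with each named gene or measure (vertical axis) across the cells of 1 plate and gate; points are the 8 plate and gate combinations, coloured by plate, and black bars are their means. Hdlbp, Sars, Col5a2, Nupr1 and Atf5 were picked for the highest means of these same 8 values, so their place above 0 is no separate result. Arntl and Dbp, which were not picked this way, lie on both sides of 0.

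The genes most like Rnase4 depended on whether gates or cells were compared. Over the 8 summed levels, centred on the plate, the highest Pearson correlations of log2 CPM among 8692 genes were those of Unc50 (0.987), Tgfbr1 (0.986), Fndc3b (0.986), Cnppd1 (0.985) and Tram1 (0.983). Tgfbr1 is a receptor of TGF-beta and Tram1 a membrane protein of the endoplasmic reticulum translocation site. Their own changes were shallow, between -0.08 and -0.17 log2 per gate. Arntl had a correlation of 0.852 and ranked 570th, and Dbp had -0.874. Across cells within gates, the highest mean Spearman correlations were those of Hdlbp (0.446, range 0.296 to 0.574), Sars (0.419), Col5a2 (0.415), Nupr1 (0.398) and Atf5 (0.395). Hdlbp is an RNA-binding protein, Sars the seryl-tRNA synthetase, Col5a2 a chain of collagen V, Nupr1 a stress-induced nuclear protein and Atf5 a stress-induced transcription factor. Each of these 5 was positive in all 8 combinations, which is no separate result, since the same 8 values picked them. The median gene had a mean of -0.002 and the 99th percentile was 0.270. Hdlbp had a correlation of -0.513 over the summed levels, so the highest gene of one ranking ran opposite in the other.

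The rest of the ribonuclease A family was sparse in these cells. Of 20 listed members, 9 were counted, and only Rnase4 and Rnase10 had a mean of at least 1 CPM. Besides Rnase4, 2 members had enough counts to test against the Venus gates, and 1 of them was called lower toward bright Venus, where 8.64% of 18430 genes were called lower and 6.78% higher. This was Rnase6, an antimicrobial ribonuclease and 1 of the 10 nearest protein-coding neighbours of Rnase4 in the reference annotation, 5 on each side. Rnase6 was at 0.592, 0.320, 0.155 and 0.170 CPM on plate 1 and at 0.631, 0.497, 0.0231 and 0.0758 CPM on plate 2. It fell by 0.96 ± 0.23 log2 per gate (SE), adjusted p 0.0318 in the edgeR quasi-likelihood test, on 194 counts in 36 cells. Rnase10, a neighbour on the other side, changed by -0.19 ± 0.16 log2 per gate with an adjusted p of 0.505 by the same test. The remaining neighbours had too few counts to test or were not analysed here.

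Rnase6 was found mostly in cells that had Rnase4. Of the 36 cells with an Rnase6 count, 32 also had an Rnase4 count (88.9%), 17 of 19 on plate 1 and 15 of 17 on plate 2, where 56.0% of all cells had Rnase4. These 32 cells are 7.49% of the 427 cells with Rnase4. Both genes are most often counted in gate 1, and the overlap was not tested.

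The partners of angiogenin were mostly well expressed, and apart from Fst they changed by at most 0.16 log2 per gate in size. Of 8 genes on that list, 3 rose and 1 fell toward bright Venus, with a median change of 0.03 log2 per gate, against 0.00 over all genes tested and 15.4% of genes called in either direction. Rnh1, the cytosolic inhibitor that binds ribonucleases of this family, was at 454, 529, 600 and 611 CPM on plate 1 and at 532, 535.3, 615 and 661 CPM on plate 2. It rose by 0.11 ± 0.02 log2 per gate (SE), adjusted p 0.00686. Ncl (nucleolin, a nucleolar RNA-binding protein that can bind angiogenin at the cell surface) was at 395 to 565 CPM on plate 1 and 430 to 576 CPM on plate 2, and rose by 0.12 ± 0.02 log2 per gate, adjusted p 0.00648. Egfr, described as a receptor for ribonucleases, fell by 0.16 ± 0.04 log2 per gate, adjusted p 0.0223, and was not called without the plate term, adjusted p 0.0808. Fst (follistatin) rose by 2.59 ± 0.31 log2 per gate, adjusted p 0.00451. It passed on 290 counts in 33 cells, with 0 counts in gate 1 of either plate, so the size of its change is uncertain. Plxnb2, the plexin receptor of angiogenin, changed by 0.01 ± 0.02 log2 per gate, adjusted p 0.605. Sdc4, a cell surface proteoglycan, and Nsun2 and Trdmt1, the methyltransferases whose marks protect transfer RNA from angiogenin, did not pass either. All of these adjusted p-values are from edgeR's quasi-likelihood test over all genes.

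Ribonucleases of other families were also examined. Rnaset2a and Rnaset2b, lysosomal enzymes of the T2 family, and Rnasek did not pass, with edgeR adjusted p of 0.930, 0.821 and 0.449. Rnaset2a and Rnaset2b are near-identical copies, so the split of counts between them is uncertain. The clock list, counted for comparison, had 15 of 19 genes called, 13 higher and 2 lower toward bright Venus, the lower ones being Arntl and Nfil3, where 6.78% of all genes tested were called higher and 8.64% lower.

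Liver is a main source of Rnase4, so 5 hepatocyte markers were examined. Of these, 1 was counted, Serpina1a, a secreted protease inhibitor, and Alb, Apoa1, Ttr and Fgb were not analysed here. Serpina1a had a count in 7.87% of cells and was at 9.07, 3.75, 1.90 and 3.09 CPM over the gates of plate 1 and 2.12, 3.36, 0.543 and 0.796 CPM over those of plate 2. It fell by 0.65 ± 0.14 log2 per gate (SE), adjusted p 0.0211 in the edgeR quasi-likelihood test, where 8.64% of all genes tested were called lower. Few cells set these levels: in gate 3 a single cell held 155 of 159 counts on plate 1 and 39 of 47 on plate 2. The part of Serpina1a in the values of Rnase4 was not tested.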

How the data were processed

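The authors deposited whole-number counts for each gene in each cell, not normalized. They also deposited a record of the sort with an intensity per cell for each fluorescence and scatter channel, in arbitrary units. Per the submitters' processing notes, STAR 2.7.11a, SAMtools, bedtools and HTSeq and the build GRCm39 (mm39) were named; the use of strand is not given in the sources used here. Symbols came from the reference tables by Ensembl identifier, and features without a symbol held 1.07% of counts. Venus gates were joined by plate and well. Cells with at least 1000 genes, at least 0.1 of the plate median total and at most 25% mitochondrial counts were kept. Plate totals were 320679261 and 321542588 counts, with medians of 835842 and 852658 per cell, and median mitochondrial shares of 9.27% and 7.42%.

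Counts were summed per plate and gate (8 sums of 76042157 to 86612194 counts). edgeR 4.0.16 in R 4.3.3 fitted gate and plate (quasi-likelihood test, TMM, filterByExpr, Benjamini-Hochberg adjustment) with a linear contrast of weights 3 and 1 divided by 10, in log2 per gate. The residual also holds differences in trend between the iRFP sorts. Forward scatter and iRFP splits used 16 sums with the plate and gate as a block. DESeq2 1.42.0 was the alternative. The main edgeR fits of the Venus gates, forward scatter and iRFP fluorescence were tested on simulated data, and the alternatives were not. Each well received 1 sorted cell and no doublet caller was run.

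Genes most like Rnase4 were the 5 with the highest Pearson correlation over the 8 sums and the 5 with the highest mean Spearman correlation across cells of a plate and gate, where the mean log2 CPM reached 3. List members were to be named from a mean of 1 CPM; Rnase6, Fst, Rnaset2a, Rnaset2b and Rnasek lie under it and were named after their values were seen. The genes and lists were chosen with earlier results of these data known. Ang is not reported because it was not analysed here. Promoter sequences are RefSeq's on GRCm38.p6. A further ribonuclease on the lists is not reported here.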

Additional observations from a re-analysis of the deposited data

How the results depend on the processing

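Rnase4 was chosen for its fall in these same counts, so an unchanged direction is no separate result. Its Venus change kept its direction in every setting run. It was -0.78 log2 per gate from the outermost gates only, -0.86 as a mean over cells of log2(CPM + 1) and -0.89 without the highest cell of each plate and gate, an alternative chosen after seeing the data. The other settings gave -0.85 to -0.81, which are also the values without plate 1 and without plate 2. The number of genes called along the gates was 2843, and 1683 with no replicate block, that is without the plate term; the outermost gates only gave 2493 and the remaining settings 2727 to 3569. Library totals without TMM moved the share of called genes that were higher from 44.0% to 57.8% and the median of all genes to 0.02 log2. Genes called by forward scatter numbered 57 with DESeq2, 5 with no filter on low counts and 1 with outer groups only, against 0, and by iRFP fluorescence 5 with DESeq2, against 0; leaving out either plate gave 0 for both. Without 1 plate the difference of Rnase4 was 0.06 to 0.48 log2 by forward scatter and 0.19 to 0.26 log2 by iRFP fluorescence. The cause of these changes was not tested. Rnase6 was called in 6 of 7 settings, and DESeq2 gave it no adjusted p. The sign of Sdc4 differed between settings, from -0.00 to 0.02 log2 per gate. Depth limits what can be said of genes under 1 CPM such as Rnase6 and Fst.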

Other observations

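Several of the genes that varied with Rnase4 from cell to cell belong to the response to amino acid shortage and endoplasmic reticulum stress, in which ATF4 raises amino acid transport, synthesis and tRNA charging. A list of 14 such genes was written after Sars, Atf5 and Nupr1 had been seen among the most like genes, and Atf5 is on both, so its values are a description with no test. Within plates and gates the 14 genes had a median correlation of 0.306 with Rnase4, and 13 of 14 were positive in all 8 combinations, as were 6.35% of 8692 genes. Aars (alanyl-tRNA synthetase) had 0.370, Trib3 (a pseudokinase) 0.362, Ddit3 (the transcription factor CHOP) 0.354 and Asns (asparagine synthetase) 0.342, while 9 of the 14 exceeded the 99th percentile of all genes, 0.270. The lowest were Psat1 (a serine synthesis enzyme) at 0.133 and Slc7a11 (a cystine transporter) at 0.164, the latter positive in 7 of 8. Over the summed gates the same genes ran both ways, with Asns at -0.808 and Trib3 at 0.764.

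At the other end were Ank, a pyrophosphate transport protein, at -0.388, St3gal1, a sialyltransferase, at -0.372, Cox6c, a subunit of cytochrome c oxidase, at -0.372, Fth1, the ferritin heavy chain, at -0.358 and Xdh, xanthine dehydrogenase, at -0.350. All 5 were negative in all 8 combinations, the same values by which they were picked.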
